A study of Mus musculus with 6 samples.

Results

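A set of 10 genes of the LIM family and of its partners were followed in RNA-seq libraries of the embryonic mouse midbrain: the LIM homeobox genes Lhx1, Lhx2, Lhx5 and Lhx9, the LIM-binding cofactors Ldb1 and Ldb2, and the LIM-only genes Lmo1, Lmo2, Lmo3 and Lmo4. They are 10 of the 26852 genes in the deposited table and were chosen by family, as relatives of Lmx1b and as proteins that bind LIM domains. The wording that chose them also covers Lhx3, Lhx4, Lhx6, Lhx8, Isl1 and Isl2, which are described further on as the other LIM homeobox genes, together with Lmx1a and Lmx1b themselves.

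LIM homeobox proteins are transcription factors that carry a pair of LIM domains, which bind other proteins, and a homeodomain, which binds DNA. Ldb proteins dimerize and bind LIM domains, and so join LIM homeobox proteins into larger complexes. Lmo proteins consist of little more than LIM domains, do not bind DNA themselves and can occupy Ldb in place of a LIM homeobox protein. In the brain these factors are known for giving young neurons their regional and transmitter identity.

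The libraries compare embryos that lost Lmx1b in Pitx3 expressing neurons with embryos that kept it. The cKO embryos were Lmx1b fl/fl;Pitx3-Cre and the controls were Lmx1b wt/wt;Pitx3-Cre, all C57Bl/6, and each genotype gave 3 libraries of total RNA from midbrains dissected at E14.5. Each library pooled 2 embryos, and the embryos came from 4 litters. Cre stands in the Pitx3 locus, so the controls too carry a Pitx3 allele with Cre, and only Pitx3 expressing cells, the mesodiencephalic dopaminergic (mdDA) neurons, recombine. All other cells of the dissected midbrain, which is most of it, kept Lmx1b. Levels below are normalized read counts, that is, reads per gene scaled by the size factor of the library. Libraries are called a, b and c within each genotype because they were recovered from the deposited group means and carry no sample number.

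Lmx1b itself had 1257, 1401 and 1455 normalized read counts in replicates a, b and c of the cKO and 1368, 1352 and 1474 in the controls. These counts are per gene and do not show the floxed part of Lmx1b apart. Its total level in the whole midbrain therefore does not check the genotype labels. Of the 6 mdDA neuron markers, Ddc and Pitx3 were lower in the cKO with an unadjusted p under 0.05, at 0.85-fold and 0.75-fold in the limma fit, and the most abundant, Nr4a2, was at 0.95-fold (unadjusted p = 0.189). Over all tested genes 1.62% were lower at this threshold. The median log2 fold change of the 6 markers was -0.20, and Slc18a2 was on the other side at 0.13 (unadjusted p = 0.408). The recovered reads summed to between 19711032 and 23954501 per library. Markers of neighbouring tissue varied between libraries. The sum of 6 mesenchyme markers, Col1a1 and Col3a1 among them, was 13337 in cKO replicate c against 391 to 1913 in the other libraries (Col3a1 passed as higher in the cKO, unadjusted p = 0.0350 in limma). The sum of 8 cerebellum and hindbrain markers was 424 in control replicate a against 54.1 to 91.3 elsewhere (Skor2 passed as lower in the cKO, unadjusted p = 0.0292 in limma). Skor2 made up 325 of the 424, and the Hox genes of that list reached at most 5.31 in any library.

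All 10 members were expressed well above the minimum for testing, and their levels differed little between the genotypes. The largest fold of a member was 1.12, for Lhx2 and Lhx9, and the smallest was 0.93, for Lmo3, and over the 10 members the 95% confidence intervals of the folds ran from 0.85 to 1.32. In the limma fit over all tested genes Lhx1 was the only member with an unadjusted p under 0.05. This is 1 of 10 members, where 466 of all 16573 tested genes (2.81%) passed in either direction and 1.19% passed as higher in the cKO. No gene, member or not, had an adjusted p under 0.05 (0%), and the adjusted p was 1.00 for each member. In whole midbrain RNA a smaller number of cells that use a gene and less RNA of it per cell cannot be told apart.

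Sorted by role, all 4 LIM homeobox members and both Ldb members had a positive log2 fold change (cKO over control), whereas Lmo1 was at 0.006 and the other 3 Lmo members were negative. The sign of Lmo1 is not settled, since the ratio of its deposited means (cKO over control) was 0.996. The signs of Lhx5, Ldb2 and Lmo2 also turned when single libraries were left out. Among the 5 tested LIM homeobox genes outside the members, 2 were positive and 3 negative, so the split by role describes the members only. Over the 10 members the median log2 fold change was 0.054, against -0.00016 over all tested genes. The median size of the change without its sign was 0.077, against 0.070 over all tested genes and 0.040 over the 7154 genes with a mean between 682 and 6002, the range of the members. Among those 7154 genes 2.05% had an unadjusted p under 0.05.

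**Figure D1:**
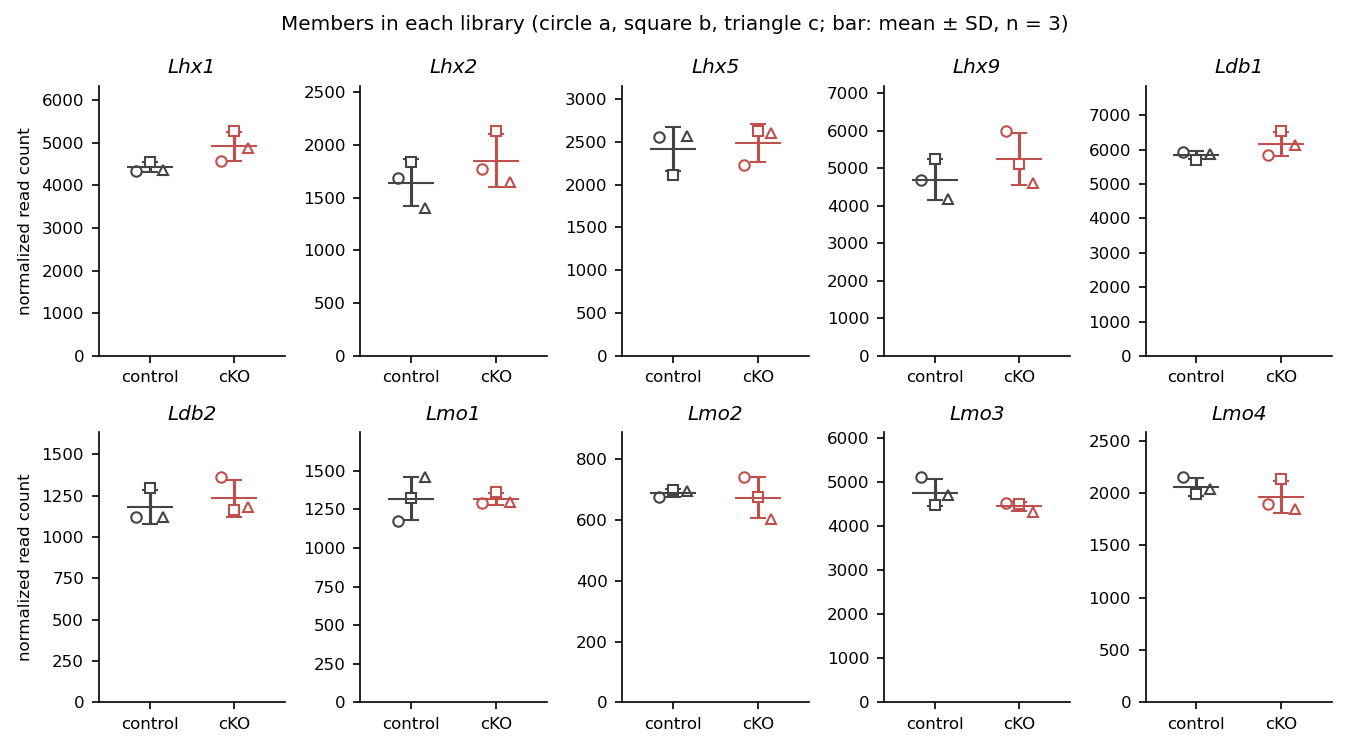
Normalized read count of each member in the 3 control and 3 cKO libraries, with the mean and SD (n = 3) as bars and each vertical axis starting at 0. The genotypes separate without overlap only for Lhx1, where the cKO libraries run from 4578 to 5278 and the control libraries from 4348 to 4559.

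**Figure D2:**
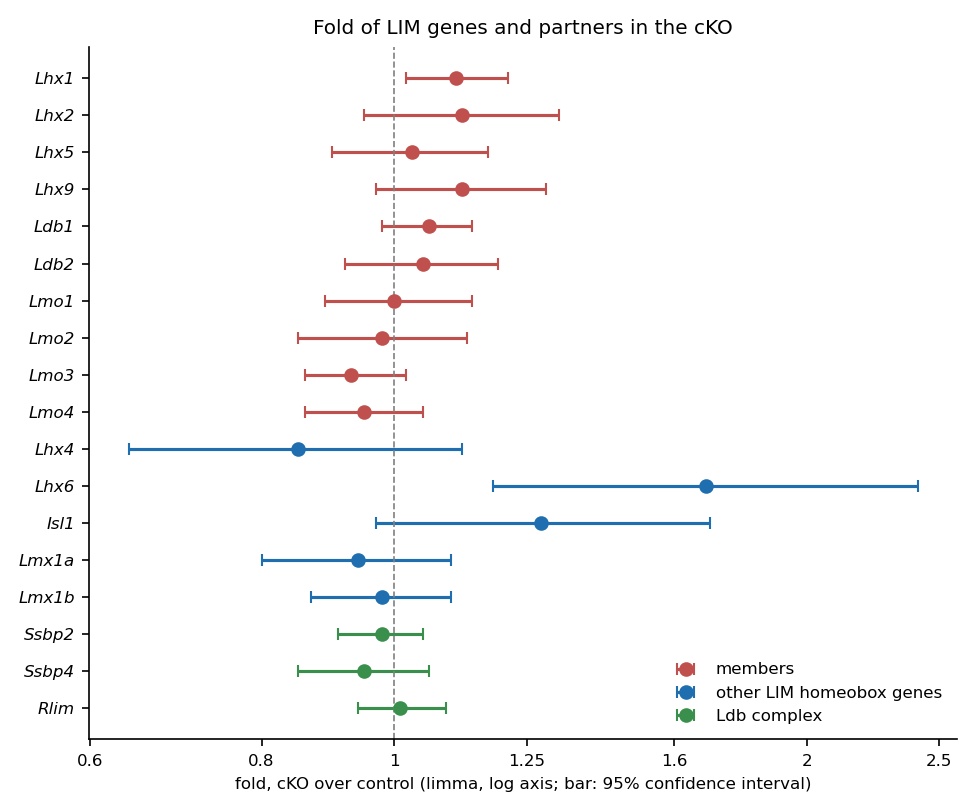
Fold of the cKO over the control for the members, the other LIM homeobox genes and the Ldb complex genes that were tested, on a log axis, with the 95% confidence interval of the limma fit. The interval lies above 1 for Lhx1 (1.02 to 1.21) and for Lhx6 (1.18 to 2.41) and includes 1 for the other genes drawn.

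How abundant the members are relative to one another can be read only per length. Per kilobase of merged exons, averaged over the 6 libraries, Ldb1 had the highest level with 1303 normalized counts, followed by Lhx1 with 1147. Lhx5 (911), Lmo3 (898) and Lmo1 (849) formed a middle group whose library ranges overlapped from one to the next. Lmo4 (569), Lhx9 (524), Lhx2 (397), Ldb2 (362) and Lmo2 (315) lay below. Between neighbours in this order the ranges over the libraries were apart only between Lhx1 (lowest library 1068) and Lhx5 (highest library 976), and between Lmo1 (lowest 759) and Lmo4 (highest 609). From Ldb1 to Lmo2 the level per kilobase differed 4.1-fold, and Ldb1 was 3.6-fold above Ldb2.

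**Figure D3:**
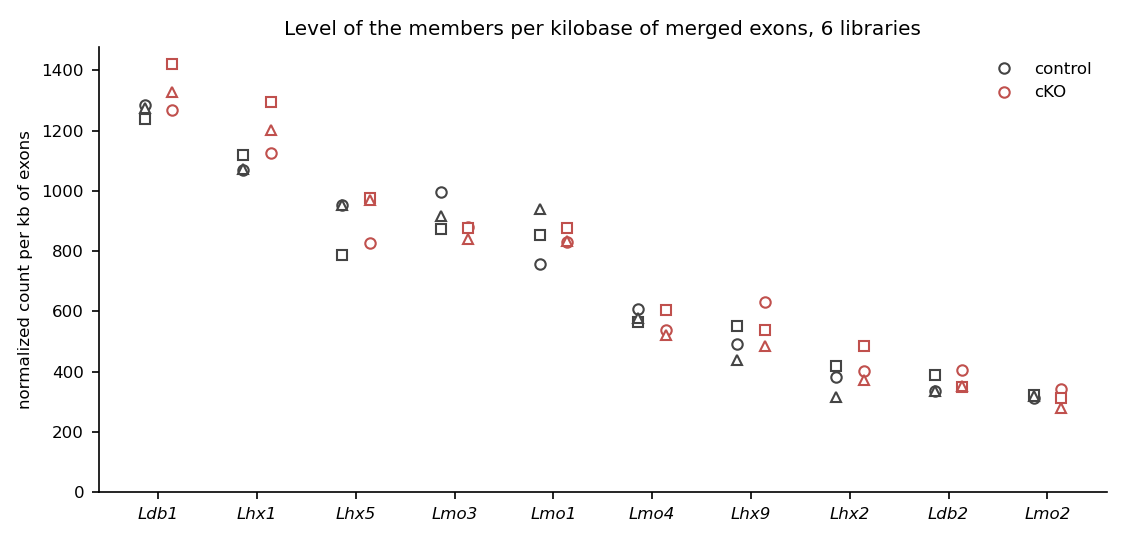
Level of the members in normalized counts per kilobase of merged exons, in order of their mean, with 1 symbol per library (circle a, square b, triangle c; grey control, red cKO). Ldb1 and Lhx1 lie above the other members, with means of 1303 and 1147, and Lmo2 is lowest at 315.

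Because Ldb proteins are shared between Lmo and LIM homeobox proteins, the summed levels per kilobase were also set against each other in each library. The 4 Lmo members together reached 1.55, 1.51 and 1.47 times the level of the 2 Ldb members in replicates a, b and c of the cKO, and 1.65, 1.61 and 1.71 times in the controls. The libraries of the genotypes did not overlap in this ratio, as in 7.70% of all tested single genes. The ratio was formed after the Lmo and Ldb members had been seen to differ in sign. It was therefore given no test, and its separation is not a result of its own. The sums hold the members only and leave out Isl1, Lmx1a and Lmx1b. The 4 LIM homeobox members together reached 1.78, 1.86 and 1.80 times the Ldb level in the cKO and 1.79, 1.77 and 1.73 times in the controls, where the libraries overlapped.

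The promoters of 3 members are shown because Lhx1 and Lmo3 had the smallest p among the members with higher and with lower cKO levels, and because the Lmo1 window holds the most homeodomain core letters. Each is the 250 bases before the RefSeq start on GRCm38.p6, minus strand, written 5′ to 3′, with TAAT on either strand (the core that many homeodomains bind) in capitals. They lie at chr11:84525535-84525784 (Lhx1), chr6:138581969-138582218 (Lmo3) and chr7:109175208-109175457 (Lmo1).
Lhx1: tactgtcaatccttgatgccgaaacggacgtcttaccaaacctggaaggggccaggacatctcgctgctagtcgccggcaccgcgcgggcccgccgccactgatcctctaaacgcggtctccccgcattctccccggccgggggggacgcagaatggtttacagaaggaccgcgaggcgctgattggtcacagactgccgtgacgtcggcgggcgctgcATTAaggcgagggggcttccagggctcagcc
Lmo3: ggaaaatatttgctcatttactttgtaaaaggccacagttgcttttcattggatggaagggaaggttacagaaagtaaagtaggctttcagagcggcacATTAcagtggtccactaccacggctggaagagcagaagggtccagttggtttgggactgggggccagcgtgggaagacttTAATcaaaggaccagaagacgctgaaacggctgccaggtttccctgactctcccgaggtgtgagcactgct
Lmo1: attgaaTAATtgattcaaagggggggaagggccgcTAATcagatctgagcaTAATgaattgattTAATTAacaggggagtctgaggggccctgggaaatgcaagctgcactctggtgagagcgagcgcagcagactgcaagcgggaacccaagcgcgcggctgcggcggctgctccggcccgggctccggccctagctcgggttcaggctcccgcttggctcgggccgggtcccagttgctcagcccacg

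The Lhx1 window holds 1 TAAT core and 26 CpG pairs, the Lmo3 window 2 cores and 6 CpG pairs, and the Lmo1 window 5 cores, counting both strands and overlaps, and 17 CpG pairs. The last 2 cores of Lmo1 overlap in TAATTA, which reads the same on both strands. Of the 32851 RefSeq promoter windows of this length, 54.9% hold TAAT on either strand and 4.8% hold TAATTA, and the median number of CpG pairs is 6. Windows were found for 7 of the members (Lhx1, Lhx2, Lhx9, Ldb1, Lmo1, Lmo3 and Lmo4), and among them only the Lmo1 windows hold TAATTA. A match of letters is a description of the window and not a binding site.

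Lhx1 (ENSMUSG00000018698, chr11:84518284-84525535, minus strand, GRCm38) acts in head organization and later in GABAergic neurons of the midbrain and in Purkinje cells. Its normalized read counts were 4578, 5278 and 4889 in replicates a, b and c of the cKO and 4348, 4559 and 4371 in control replicates a, b and c. Every cKO library was above every control library, which holds for 1 of the 10 members and for 7.70% of all tested genes in either direction. The means were 4915 ± 351 and 4426 ± 116 (SD, n = 3 libraries each), and the log2 fold change was 0.15 (SE 0.057, limma, unadjusted p = 0.0248, adjusted p = 1.00), a fold of 1.11 with a 95% confidence interval of 1.02 to 1.21. By the exact permutation test of these 3 against 3 libraries the two-sided p was 0.1, the smallest that this design allows. The difference between the means exceeded both SDs, but the unadjusted limma p was 0.121 when cKO replicate b was left out, and 0.0595 and 0.0714 when replicates a and c of the control were.

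Lhx1os is an antisense transcript that starts 126 bases before the Lhx1 start, on the other strand and within the Lhx1 window shown above. The strand setting of the authors' counting is not given in the sources used here, but the exons of these genes do not overlap in GENCODE. Lhx1os had 690, 841 and 811 normalized read counts in replicates a, b and c of the cKO and 906, 670 and 750 in the controls, with a log2 fold change of 0.004 (SE 0.12, limma, unadjusted p = 0.972). Per kilobase of merged exons, the level of Lhx1 was 1.03 to 1.14 times that of Lhx1os in the cKO libraries and 0.82 to 1.17 times in the controls, and these ranges overlap.

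Lhx5 (ENSMUSG00000029595, chr5:120431699-120441223), the closest relative of Lhx1, is used in overlapping sets of neurons. It showed 2226, 2625 and 2605 normalized read counts in cKO replicates a, b and c against 2560, 2114 and 2566 in the controls. The libraries interleaved, and the lowest of all 6 was control replicate b. The log2 fold change was 0.041 (SE 0.087, limma, unadjusted p = 0.645) with a fold interval of 0.90 to 1.17. It turned to -0.001 without cKO replicate b and to -0.052 without control replicate b. Of its exons 69 bases (2.6%) are shared with Gm27199 on the other strand, which had a log2 fold change of -0.11 (unadjusted p = 0.552), and without strand the reads of these genes cannot be told apart there.

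Lhx2 (ENSMUSG00000000247, chr2:38339281-38369733) is needed for eye, cortex and thalamus development. Its normalized read counts were 1775, 2131 and 1644 in the cKO and 1685, 1840 and 1398 in the controls (replicates a, b and c), with means of 1850 ± 252 and 1641 ± 224 (SD, n = 3). It was the member with the largest log2 fold change, 0.17 (SE 0.11, limma, unadjusted p = 0.151), but also with the widest interval, a fold of 0.95 to 1.32. The genotypes overlapped, since control replicate b lay above cKO replicates a and c. Lhx2 lies 4.70 Mb from Lmx1b on chromosome 2.

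Lhx9 (ENSMUSG00000019230, chr1:138825186-138848577) is related to Lhx2 and marks thalamic, pretectal and dorsal midbrain neurons. It reached 5995, 5124 and 4614 normalized read counts in replicates a, b and c of the cKO and 4682, 5251 and 4169 in the controls. Replicate a was the highest of the cKO libraries and replicate b the highest of the controls, and the groups overlapped. The means were 5244 ± 698 and 4701 ± 541 (SD, n = 3), with a log2 fold change of 0.16 (SE 0.095, limma, unadjusted p = 0.125) and a fold interval of 0.97 to 1.29. It was 0.24 both without cKO replicate c (unadjusted p = 0.0234) and without control replicate b (unadjusted p = 0.0309), but 0.052 without cKO replicate a (unadjusted p = 0.555) and 0.079 without control replicate c (unadjusted p = 0.443).

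Ldb1 (ENSMUSG00000025223, chr19:46031570-46045214) is the cofactor through which most LIM homeobox and Lmo complexes form. It had 5846, 6542 and 6123 normalized read counts in replicates a, b and c of the cKO and 5922, 5703 and 5879 in the controls. The control libraries lay close together and cKO replicate a fell among them. The means were 6170 ± 350 and 5835 ± 116 (SD, n = 3), and the log2 fold change was 0.078 (SE 0.050, limma, unadjusted p = 0.147) with a fold interval of 0.98 to 1.14. Without cKO replicate a it was 0.12 (unadjusted p = 0.0444), and without cKO replicate b it was 0.035 (unadjusted p = 0.502). Its exons share 177 bases (3.8%) with Pprc1 on the other strand, whose log2 fold change was -0.033 (unadjusted p = 0.675).

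Ldb2 (ENSMUSG00000039706, chr5:44472132-44799680), the second Ldb cofactor, was measured at 1359, 1160 and 1178 normalized read counts in the cKO and at 1121, 1297 and 1122 in the controls (replicates a, b and c). One library of each genotype, cKO replicate a and control replicate b, stood above the rest. The log2 fold change was 0.066 (SE 0.087, limma, unadjusted p = 0.462), the fold interval was 0.92 to 1.19, and without cKO replicate a the value turned to -0.011.

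Genes of proteins that act on Ldb gave no call. Ssbp2 and Ssbp4, single-stranded DNA binding proteins that bind Ldb and protect it from degradation, had log2 fold changes of -0.035 (unadjusted p = 0.491) and -0.074 (unadjusted p = 0.321). Rlim, a ubiquitin ligase of Ldb, had 0.017 (unadjusted p = 0.752). Thus 0 of these 3 tested genes passed at an unadjusted p under 0.05 in limma, where 2.81% of all tested genes passed. Ssbp3 was too abundant for its single libraries to be recovered, and its deposited means were 9678 in the cKO and 9666 in the control.

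Lmo3 (ENSMUSG00000030226, chr6:138362918-138581968), a neuronal LIM-only gene, was the member with the lowest fold. Its normalized read counts were 4521, 4510 and 4324 in replicates a, b and c of the cKO and 5110, 4488 and 4704 in the controls. Only control replicate b, which lay below cKO replicates a and b, kept the groups from separating. The means were 4451 ± 110 and 4767 ± 316 (SD, n = 3), with a log2 fold change of -0.10 (SE 0.056, limma, unadjusted p = 0.104) and a fold interval of 0.86 to 1.02. Without control replicate b it was -0.14 (unadjusted p = 0.0309), and without control replicate a it was -0.044 (unadjusted p = 0.410).

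Lmo4 (ENSMUSG00000028266, chr3:144188530-144205220) is widely used in the developing forebrain and in epithelia. It showed 1899, 2133 and 1846 normalized read counts in cKO replicates a, b and c against 2150, 1989 and 2038 in the controls. Replicates a and c of the cKO lay below all controls and replicate b lay among them, and the log2 fold change was -0.075 (SE 0.068, limma, unadjusted p = 0.288) and the fold interval 0.86 to 1.05.

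Lmo1 (ENSMUSG00000036111, chr7:109138572-109175207), first known from T cell leukaemia and expressed in the developing nervous system, had 1289, 1360 and 1296 normalized read counts in cKO replicates a, b and c. The controls had 1178, 1326 and 1457, a range that encloses all cKO libraries. The log2 fold change was 0.006 (SE 0.082, limma, unadjusted p = 0.944), with a fold interval of 0.89 to 1.14.

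Lmo2 (ENSMUSG00000032698, chr2:103957986-103981878) is best known as a bridge between Ldb1 and the Tal1 and Gata factors of blood and endothelial cells. It was the lowest member per kilobase, with 740, 677 and 605 normalized read counts in replicates a, b and c of the cKO and 675, 700 and 696 in the controls. The cKO libraries lay on both sides of the controls. The log2 fold change was -0.032 (SE 0.094, limma, unadjusted p = 0.738) and the fold interval was 0.85 to 1.13. Of 5 tested partners of Lmo2 none passed at an unadjusted p under 0.05, where 2.81% of all tested genes passed. Their median log2 fold change was -0.072 in the limma fit. The most abundant of them, Tcf12, had -0.058, Tal1, which also marks GABAergic neurons of the midbrain, had -0.072, Gata2 had 0.036, and Lyl1 had -0.79 at 17.8 to 48.0 normalized read counts per library (unadjusted p = 0.0515). None of 8 endothelial genes passed, against the same 2.81% of all tested genes, with a median of 0.009 and 0.035 for Kdr, the most abundant. Among 8 erythroid genes, the haemoglobin genes Hba-a1 and Hbb-bs were higher in the cKO (limma, unadjusted p = 0.0383 and 0.0318), where 1.19% of all tested genes were higher. For both genes the libraries of the genotypes overlapped. The median log2 fold change over the 8 genes was 0.28, and the part of blood content in the Lmo2 level was not tested.

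Of the 8 other LIM homeobox genes 5 passed the minimum for testing, of which 1 was higher in the cKO at an unadjusted p under 0.05, 0 were lower and 4 did not pass, where 1.19% of all tested genes were higher and 1.62% lower. The gene that passed was Lhx6, which directs the migration and fate of GABAergic interneurons from the ventral forebrain. It had 179, 297 and 182 normalized read counts in replicates a, b and c of the cKO and 123, 104 and 158 in the controls, with no overlap between the genotypes, as in 7.70% of all tested genes. The log2 fold change was 0.76 (SE 0.23, limma, unadjusted p = 0.00757, adjusted p = 1.00), a fold of 1.69 with an interval of 1.18 to 2.41. Without any 1 of the 6 libraries it lay between 0.52 and 0.90, the lowest without cKO replicate b, and the unadjusted p stayed under 0.05. Lhx6 lies 2.44 Mb from Lmx1b, nearer than Lhx2.

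Isl1, a factor of motor neurons and of ventral forebrain neurons, had 984, 1650 and 944 normalized read counts in replicates a, b and c of the cKO and 901, 1044 and 755 in the controls. Replicate b of the cKO stood above the others, and the log2 fold change of 0.36 (SE 0.19, limma, unadjusted p = 0.0803) fell to 0.11 without it. Lhx8, which acts in cholinergic neurons of the basal forebrain, was near 0 in most libraries, with 0.937, 28.5 and 2.16 in the cKO and 4.42, 11.5 and 0 in the controls. Lhx4, used in motor neurons and the pituitary, had a log2 fold change of -0.24 (SE 0.19, unadjusted p = 0.226) and its relative Lhx3 had at most 1.08 normalized read counts in any library. Isl2 had 2.81 to 12.4. Lmx1a, which patterns the floor plate beside Lmx1b, was at -0.092 (SE 0.11, unadjusted p = 0.402), and Lmx1b at -0.031 (SE 0.074, unadjusted p = 0.685).

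Within the groups, 1 library stood at the end of the range for several LIM homeobox genes and forebrain markers. In cKO replicate b the levels of Lhx1, Lhx2, Lhx5, Ldb1, Isl1, Lhx6 and Lhx8 were the highest of all 6 libraries, whereas those of Lhx4 (218) and Lmx1a (949) were the lowest. Lhx8 was below the minimum for testing. The same library was the highest for 6 of 9 tested markers of forebrain and diencephalon, and for 3 of 8 endothelial genes. The share of all tested genes that were highest in it was not determined. The summed level of the 9 forebrain and diencephalon markers was 6265, 7820 and 6568 in replicates a, b and c of the cKO and 5637, 6097 and 5634 in the controls. Emx2, Dlx1, Dlx5 and Dlx6 were higher in the cKO, with log2 fold changes of 0.21, 0.37, 0.70 and 0.60 (limma, unadjusted p = 0.0478, 0.0110, 0.0106 and 0.00228), and the other 5 markers given here did not pass, where 1.19% of all tested genes were higher. The list is not complete, was chosen with earlier results of these data known and holds 4 related Dlx genes, so it is not independent evidence of a direction. Six3, the most abundant of those tested, was at 0.047. The part of forebrain tissue in the levels of the LIM homeobox genes was not tested. Without cKO replicate b the log2 fold change was 0.095 for Lhx1, 0.064 for Lhx2 and 0.52 for Lhx6. For Lhx2 it was also 0.064 without control replicate c, so the lower value was not particular to cKO replicate b.

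**Figure D4:**
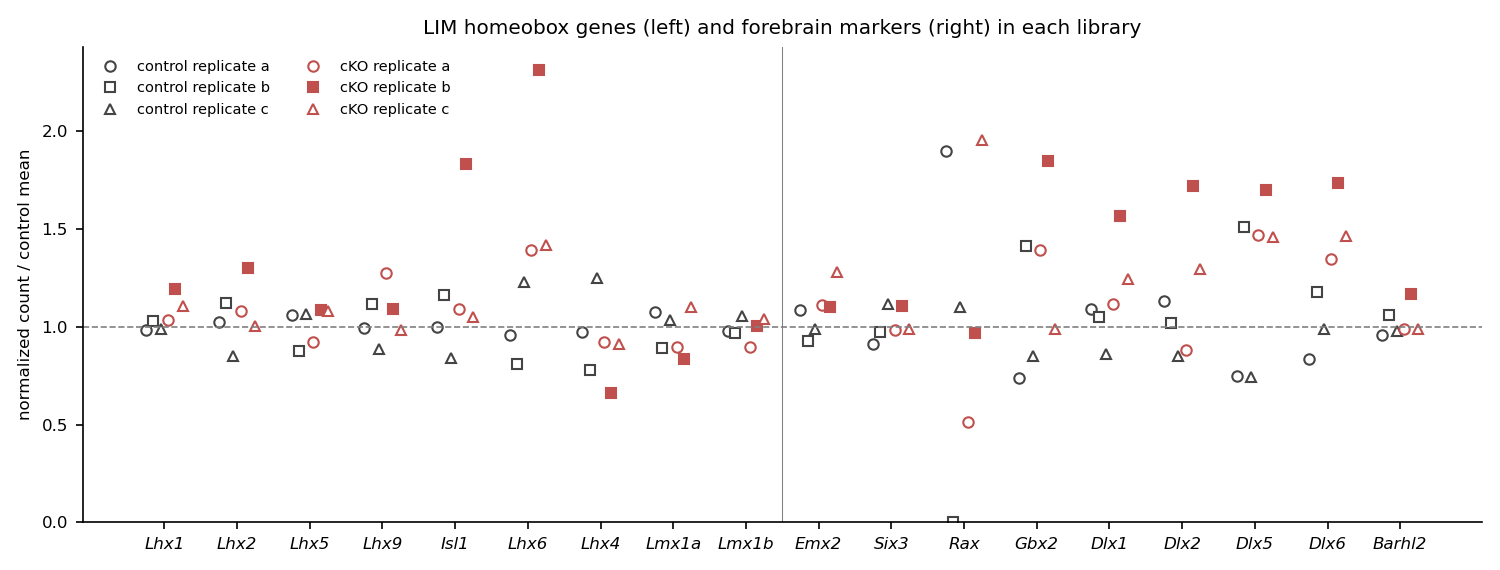
Normalized count of the 9 tested LIM homeobox genes (left) and the 9 tested forebrain and diencephalon markers (right) in each library, divided by the mean of the control libraries. The filled square, cKO replicate b, is the highest library for Lhx1, Lhx2, Lhx5, Isl1 and Lhx6 and for 6 of the 9 markers, and the lowest for Lhx4 and Lmx1a.

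Other libraries also stood at the end of the range for some members. Replicate a of the cKO was the highest library for Lhx9, Ldb2 and Lmo2, control replicate a for Lmo3 and Lmo4, and control replicate c for Lmo1. The lowest level was in cKO replicate c for Lmo2, Lmo3 and Lmo4, the library with the most mesenchyme RNA, in control replicate a for Lhx1, Ldb2 and Lmo1, in control replicate b for Lhx5 and Ldb1, and in control replicate c for Lhx2 and Lhx9. Of 7 dorsal midbrain markers none passed at an unadjusted p under 0.05 in either direction, where 2.81% of all tested genes passed. Their median log2 fold change was -0.14, with 0.091 for Meis2, the most abundant.

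**Figure D5:**
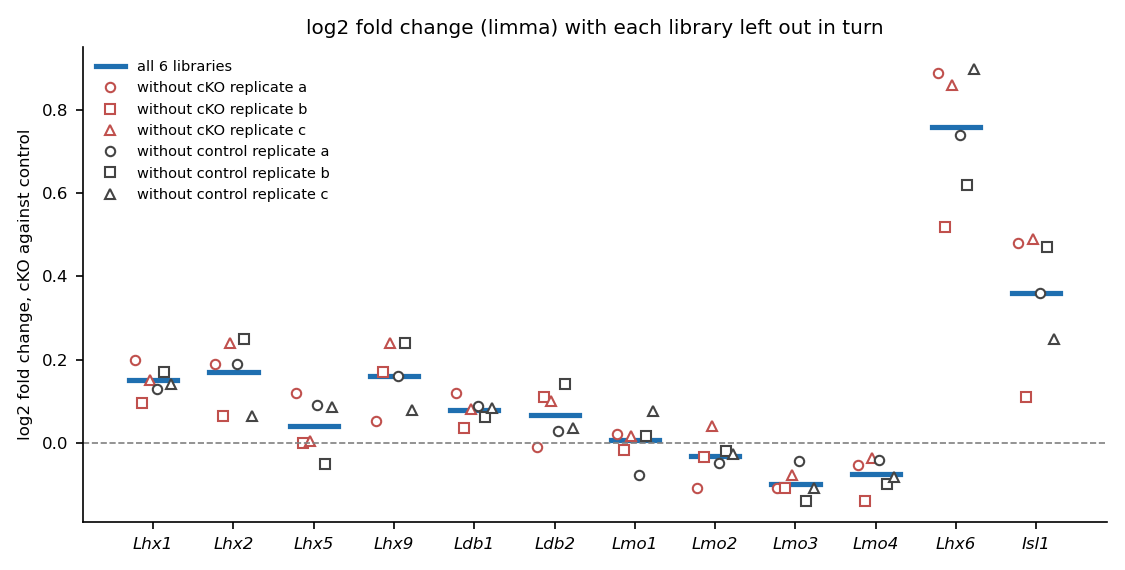
log2 fold change of the members and of Lhx6 and Isl1 with all 6 libraries (blue bar) and with each library left out in turn (symbols), on a linear axis with 0 dashed. The members stay between -0.14 and 0.25, and the values of Lhx5, Ldb2, Lmo1 and Lmo2 lie on both sides of 0.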

How the data were processed

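RNA of E14.5 midbrain was sequenced, mapped and counted for the authors by a service company. The submitters' processing notes name TopHat 1.0.14, Bowtie2 2.1.0, HTSeq 0.6.1p1, DESeq 1.10.1 and GRCm38.p4, while the paper names DESeq2. The strand setting of the counting is not given in the sources used here. The deposited table holds the signal per gene as group means of counts divided by size factors. The 3 lines that name no gene held 31.8% of the mean counts and were left out. Its ratio, log2 and p-value columns hold the authors' own comparison and were not used.

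The printed group means fix the whole-number counts behind them. A single answer for both groups was found for 26248 genes (97.8%, holding 66.4% of normalized counts), for sums of up to 30000 reads, and the size factors recomputed from these counts differed by at most 0.169%. For genes averaging 10 or more, these counts entered limma 3.58.1 (voom weights, genotype as the term, R 4.3.3). The recovery and the fit were tested on simulated data. An unadjusted p under 0.05 was the threshold, Benjamini-Hochberg adjusted values were given beside it, and exact permutation tests were two-sided. The p-values measure the spread between these libraries of pooled embryos. Values per kilobase used merged exons of GENCODE release 21 (GRCm38). Promoters were taken from RefSeq (GRCm38.p6). Python 3.11.15, numpy 2.4.6, scipy 1.17.1, pandas 2.3.3 and matplotlib 3.10.9 were used.

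The members and the marker lists were chosen with earlier results of these data known. The text names all members, the other LIM homeobox genes, the Ldb complex genes and, of the marker lists, the genes with an unadjusted p under 0.05 and the most abundant recovered gene. The pooling of embryos and the number of litters were taken from the study's methods. Slc18a2, Gata2, Tal1, Lyl1, the Hox genes and genes on the opposite strand of a member were named after their values were seen. Some genes first set down as forebrain markers were left out of that list, for a reason unrelated to their values, and are not reported here. The alternatives were limma-trend with pseudocounts of 1 and 10, minimum means of 1 and 50, scaling by total reads or the upper quartile, and each library left out in turn.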

Additional observations from a re-analysis of the deposited data

How the results depend on the processing

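Leaving out 1 library at a time gave 0 to 3 members with an unadjusted p under 0.05 in limma, against 1 with all libraries: Lhx1 and Ldb1 without cKO replicate a, Lhx1 and Lhx9 without cKO replicate c, Lhx1, Lhx9 and Lmo3 without control replicate b, and 0 without cKO replicate b, control replicate a or control replicate c. Over all tested genes 473, 497 and 577 passed without cKO replicates a, b and c. Without control replicates a, b and c, 636, 578 and 332 passed. Each of these fits tested 16535 to 16602 genes, and 466 of 16573 passed with all libraries. The log2 fold changes of these 6 fits lay between 0.095 and 0.20 for Lhx1, 0.064 to 0.25 for Lhx2, -0.052 to 0.12 for Lhx5, 0.052 to 0.24 for Lhx9, 0.035 to 0.12 for Ldb1, -0.011 to 0.14 for Ldb2, -0.078 to 0.075 for Lmo1, -0.11 to 0.041 for Lmo2, -0.14 to -0.044 for Lmo3 and -0.14 to -0.036 for Lmo4. They ran from -0.40 to -0.082 for Lhx4 (unadjusted p = 0.0463 without control replicate b), 0.11 to 0.49 for Isl1, -0.20 to -0.014 for Lmx1a, -0.074 to 0.034 for Lmx1b, -0.14 to -0.008 for Ssbp4 and -0.012 to 0.051 for Rlim. Isl1 passed without cKO replicate a (0.48, unadjusted p = 0.0326), cKO replicate c (0.49, unadjusted p = 0.0271) or control replicate b (0.47, unadjusted p = 0.0473). The single turned values not given above were -0.018 for Lmo1 without cKO replicate b, 0.034 and 0.005 for Lmx1b without cKO replicate a and control replicate c. Lmo1 was also at -0.001 with limma-trend at either pseudocount. The cause was not tested. No other minimum mean, scaling or weighting changed a direction or a call among the results recomputed. No paired analysis was possible because the recovered libraries carry no sample number: the table's headers use the same numbers for both genotypes, but the mean of a group does not tell which library bears which. With 3 libraries per genotype of mixed tissue, the recombined neurons are not resolved from other cells, and genes beyond the search limit, such as Ssbp3, have no values per library.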
